A study of Mus musculus with 16 samples.

Results

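The Wnt ligands, receptors and regulators were 56 of the 20072 genes of the deposited table. They were taken by symbol: the Wnt and frizzled families, Lrp5 and Lrp6, the R-spondins, the Sfrp and Dkk families, the dishevelled, axin and TCF/LEF genes, Znrf3, Rnf43, the Nkd and Kremen genes, Notum, Apcdd1, Porcn and Wls. RNA was measured by bulk sequencing in 4 groups of 4 libraries from the small intestine of mice aged 8 to 16 weeks. All mice were untreated and carried Tph1-CFP, a cyan fluorescent reporter tied to the gene of the serotonin-making enzyme Tph1, so no group lacked the reporter. The groups were villus EC (CFP-positive enterochromaffin cells of the villus fraction), villus epi (CFP-negative epithelial cells of the villus fraction), crypt EC (CFP-positive cells of the crypt fraction) and crypt epi (CFP-negative cells of the crypt fraction). Each library pooled 5000 sorted cells and was amplified from very little RNA, and the submitters give 4 mice or samples per group, so the p-values measure the spread between libraries, which may not all be separate animals. Replicate numbers are those of the sample titles.

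Wnt proteins are lipid-modified by Porcn, carried to the cell surface by Wls, and bind a frizzled receptor together with Lrp5 or Lrp6. Dishevelled proteins then take the signal into the cell, β-catenin is spared from destruction by the axin complex, and TCF/LEF factors switch on target genes. R-spondins raise the number of receptors by removing the ubiquitin ligases Rnf43 and Znrf3. In the small intestine this pathway maintains the stem cells of the crypt, and Wnt3 is known as a product of the Paneth cells that lie between them.

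The promoters of Wnt3, Fzd1 and Rspo4 are shown because these are a ligand, the frizzled receptor with the highest FPKM in EC and an R-spondin, each higher in EC than in epi at both sites. Each line gives the 250 bases before the RefSeq start site in GRCm38.p6, 5′ to 3′ on the gene's own strand, with the TCF/LEF core CTTTGA or its reverse complement TCAAAG in capitals where either occurs. The windows lie at chr11:103773925-103774174 on the plus strand for Wnt3, at chr5:4758217-4758466 on the minus strand for Fzd1 and at chr2:151842677-151842926 on the plus strand for Rspo4.
Wnt3: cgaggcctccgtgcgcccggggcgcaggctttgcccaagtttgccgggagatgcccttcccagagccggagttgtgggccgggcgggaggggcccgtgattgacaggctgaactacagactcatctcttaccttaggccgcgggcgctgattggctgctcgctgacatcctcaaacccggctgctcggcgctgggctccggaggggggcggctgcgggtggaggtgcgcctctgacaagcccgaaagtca
Fzd1: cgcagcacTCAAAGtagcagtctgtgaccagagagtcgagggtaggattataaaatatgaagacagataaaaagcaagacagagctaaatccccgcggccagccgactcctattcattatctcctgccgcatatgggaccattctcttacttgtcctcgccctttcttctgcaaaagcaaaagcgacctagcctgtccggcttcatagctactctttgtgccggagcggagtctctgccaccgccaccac
Rspo4: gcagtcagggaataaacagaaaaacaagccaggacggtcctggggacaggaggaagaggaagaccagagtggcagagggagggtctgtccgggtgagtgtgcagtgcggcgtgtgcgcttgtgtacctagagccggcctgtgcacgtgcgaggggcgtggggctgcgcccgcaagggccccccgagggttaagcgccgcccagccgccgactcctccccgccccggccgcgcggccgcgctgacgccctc
The Fzd1 window held 1 such match, which begins 242 bases before the start site, and the windows of Wnt3 and Rspo4 held none. RefSeq windows were at hand for 36 of the 56 genes. Over the full windows of 300 bases (250 before and 50 after the start), 5 of the 45 windows of these genes (11.1%) held the core, against 5257 of the 32851 windows of all genes (16.0%). GC content was 65.7% for Wnt3, 54.0% for Fzd1 and 71.0% for Rspo4, against a median of 52.7% over all windows, and the windows held 24, 16 and 31 CpG dinucleotides in that order, against a median of 7.

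Values are FPKM, which divide the fragments of a gene by its transcript length and by a scale of the library, so levels of different genes can be set side by side. Read counts were not used here, the depth behind each value is unknown, and no counting interval is given. Column sums were 805073 to 901567 in villus EC, 1190722 to 1415123 in villus epi, 731415 to 766491 in crypt EC and 1045160 to 1136983 in crypt epi. Enterochromaffin markers followed the sort labels. The 10 markers, Tph1 included, summed to 50843 to 61020 FPKM in villus EC and 531 to 654 in villus epi. Crypt EC had 55532 to 59875 and crypt epi 145 to 187. Tph1 carries the reporter, so its difference follows from the sort. Markers of other cell types were also found in EC. Of 7 goblet markers in the villus, EC had 1 called higher and 4 called lower. The higher one, Agr2, averaged 5039 FPKM in villus EC and 565 in villus epi. Of 4 stem markers in the crypt, 3 were called lower in EC. The other, Smoc2, averaged 126 FPKM in crypt EC and 135 in crypt epi. Carry-over of other cells was not tested. Villus epi replicate 2 stood apart, with a mean correlation of 0.812 with its own group against 0.923 to 0.985 for the other libraries, and its summed stromal and lymphocyte markers reached 162 and 31.0 FPKM. A single gene carried most of each sum: Dcn, a matrix proteoglycan, with 130.3 FPKM and Ptprc, the leukocyte gene for CD45, with 24.6 FPKM. No villus epi library passed 1.93 FPKM of the collagen gene Col1a1 or 0.751 FPKM of the T cell gene Cd3e. Other lymphocyte markers reached more in villus epi: Gzma 2.98, Cd7 2.08, Nkg7 2.08 and Cd8a 1.75 FPKM. Of 11 lymphocyte markers, 5 stayed below 1 FPKM in all villus epi libraries, against 8 in villus EC and 9 in each crypt group. For the stromal markers these counts were 8 in villus epi, 12 in villus EC, 10 in crypt EC and 13 in crypt epi. Of the 15 stromal markers, 14 were in the table, and their sums ran from 17.03 to 25.5 FPKM in villus EC, from 6.89 to 162 in villus epi, from 21.6 to 38.7 in crypt EC and from 3.28 to 5.60 in crypt epi. Pecam1, an endothelial adhesion gene, gave 13.3 to 21.6 FPKM of the sum in villus EC, 1.25 to 23.1 in villus epi, 16.8 to 33.0 in crypt EC and 0.751 to 1.17 in crypt epi. Its part in the differences between EC and epi was not tested.

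A gene was tested if it reached 1 FPKM in at least 4 of the 16 libraries, which 26 of the 56 genes and 14089 of all genes did. Wnt9a reached that level in villus EC libraries only and Dkk3 in crypt EC libraries only, and Nkd1 would have failed it without crypt epi, so these 3 were tested because of the group in which they are high. Fold changes are differences of mean log2(FPKM + 1), with their standard error (SE), and understate the change of low genes. They were tested with limma over all tested genes, and a gene was called at a Benjamini-Hochberg adjusted p below 0.05. Each group enters more than 1 comparison, so the comparisons share libraries. The other 30 genes were 13 of 15 ligands, 4 of 10 frizzled receptors, 8 of 12 secreted or surface antagonists, 3 of 4 TCF/LEF factors, Rspo1 and Nkd2. Of these, 18 never passed 1 FPKM in any library, and the highest single value was 3.02 FPKM, for Wnt6 in villus epi replicate 3. In 11 of the 30 the highest value came from villus epi replicate 2. Among them were Dkk2 with 2.68, Tcf7l1 with 2.45 and Lef1 with 2.39 FPKM.

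Between villus EC and villus epi, 8 of the 26 genes were higher and 4 lower, against 40.6% and 21.6% of all genes tested. Between crypt EC and crypt epi, 8 were higher and 4 lower, against 23.2% and 20.0%. The median log2 fold change of the 26 was 0.21 in the villus and -0.12 in the crypt, against 0.33 and 0.05 over all genes. Rspo4, Fzd1, Fzd6, Dvl2 and Wnt3 were higher and Kremen2 was lower in EC at both sites, while Fzd4 and Fzd9 were called in opposite directions at the 2 sites. Within EC cells, 4 genes were higher and 6 lower in the villus than in the crypt, against 10.3% and 16.2% of all genes. Within epi cells, 2 were higher and 11 lower in the villus, against 19.6% and 35.4%. In 7 of the 26 genes none of these 4 comparisons was called, and in 3, Fzd4, Fzd6 and Wnt3, all were. How many of all genes were called in none or in all 4 was not computed, so these 2 counts have no background beside them. The difference between the EC-to-epi gaps of villus and crypt (the interaction) was called as higher for 8 genes and lower for 4, against 26.9% and 16.0% of all genes. Bringing every library to an equal sum moved the median of all genes to 0.81 in the villus and 0.50 in the crypt comparison of EC and epi. On that scale 55.9% of all genes were higher and 13.6% lower in villus EC, and 15 and 2 of the 26 were. In crypt EC 42.6% of all genes were higher and 10.2% lower on that scale, and 9 and 3 of the 26 were. The same scaling put 8.06% of all genes higher and 24.6% lower in villus EC than in crypt EC. Bringing libraries to an equal median ratio put 33.7% of all genes higher and 26.3% lower in EC than in epi of the villus, with 8 and 4 of the 26 called. No difference of a single gene among the 26 that was called on the deposited scale changed sign under either scaling. Rnf43 between villus EC and villus epi, which was not called on the deposited scale, changed sign and was called at an equal sum. Without villus epi replicate 2, 10 of the 26 were higher and 5 lower in EC than in epi of the villus. The share of all genes called in that fit was not computed, so these counts have no background beside them. The villus fold changes were then 5.29 for Wnt3, 3.63 for Wls, 3.69 for Fzd1, 2.82 for Rspo4, 1.11 for Fzd6, 0.77 for Fzd9, 1.57 for Dvl2 and -1.39 for Dvl1, with adjusted p from 8.68e-13 to 0.0244.

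**Figure D1:**
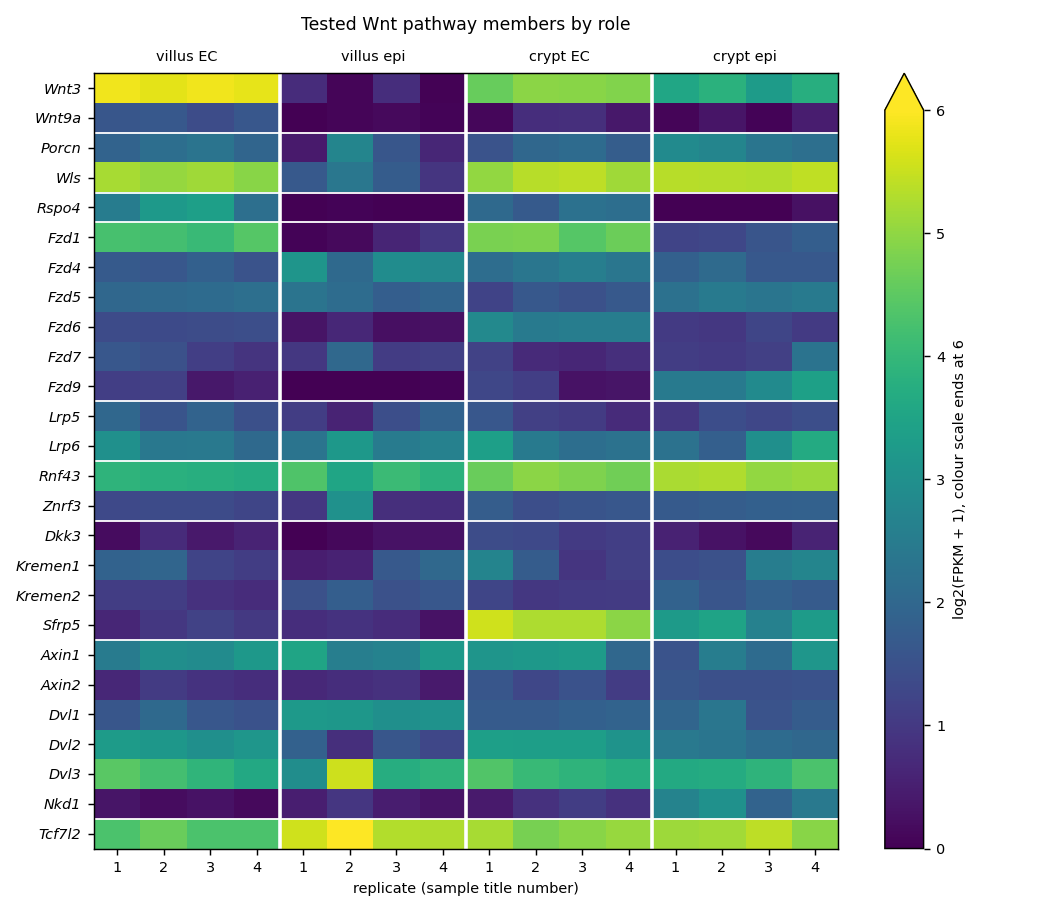
Colour shows log2(FPKM + 1) of the 26 tested genes in each of the 16 libraries, with rows grouped by role and the colour scale ending at 6. Wnt3 is brightest in villus EC, Sfrp5 in crypt EC, and villus epi replicate 2 is bright for Dvl3, Znrf3 and Tcf7l2.

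**Figure D2:**
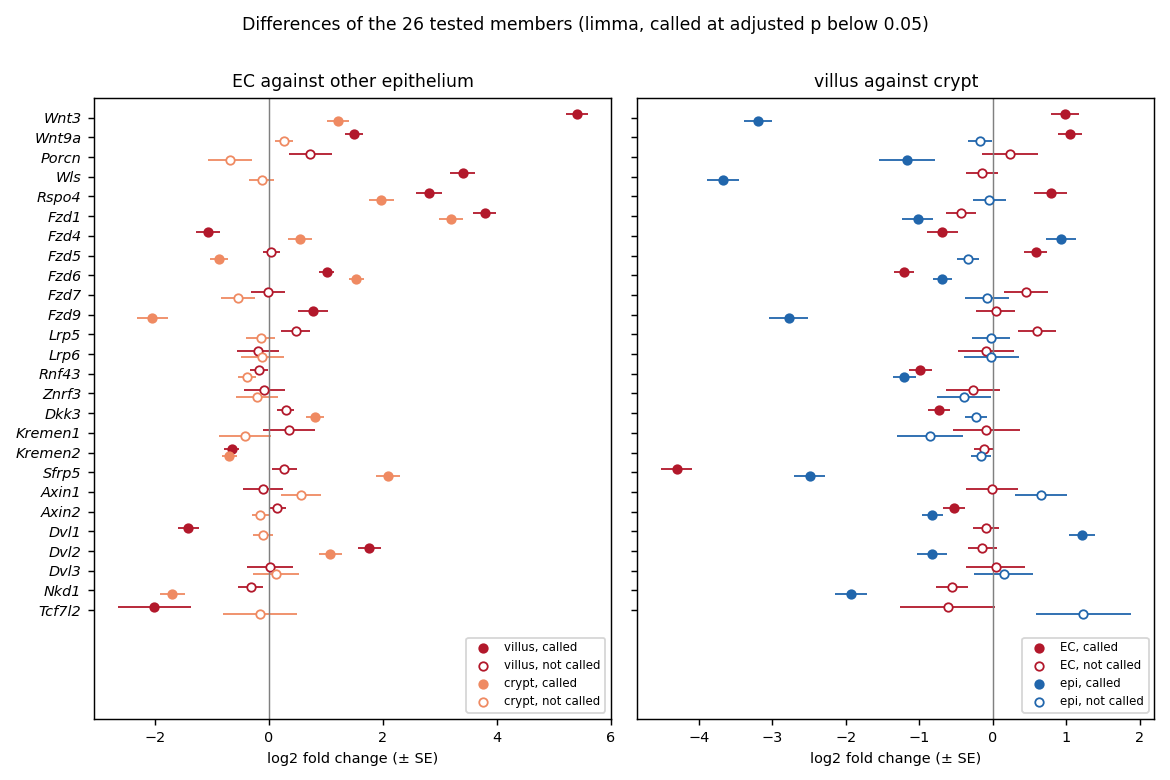
Points are log2 fold changes of the 26 tested genes with their SE, filled where called, for EC against epi on the left and villus against crypt on the right. Wnt3 has the largest EC-to-epi difference in the villus (5.40), and Wls has a large one in the villus (3.40) with none called in the crypt (-0.12).

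Wnt3 (chromosome 11, 103774150 to 103817957, plus strand, GRCm38) was the most abundant ligand in EC cells and in crypt epi. It had 57.1, 52.9, 57.2 and 54.3 FPKM in villus EC, against 0.695, 0.0622, 0.735 and 0.018 FPKM in villus epi. In crypt EC it had 23.2, 29.9, 29.4 and 28.1 FPKM, against 10.8, 13.3, 8.72 and 12.6 FPKM in crypt epi. The 4 groups did not overlap in any library, and the order was villus EC, crypt EC, crypt epi, villus epi. The log2 fold change was 5.40 (SE 0.19, adjusted p = 4.80e-12) in the villus and 1.22 (SE 0.19, adjusted p = 8.98e-05) in the crypt. EC cells of the villus stood 0.98 (SE 0.19, adjusted p = 0.00119) above those of the crypt, while epi cells of the villus stood 3.19 below those of the crypt (log2 fold change -3.19, adjusted p = 1.88e-09). The interaction was 4.18 (SE 0.27, adjusted p = 2.59e-08). With 0.1 in place of 1 added before the log, the crypt difference was 1.29 (adjusted p = 0.0529) and the difference between villus EC and crypt EC 1.01 (adjusted p = 0.183), so those 2 calls were lost.

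In these bulk libraries, fewer cells that hold a transcript and less of it per cell cannot be told apart. The Paneth cell is the known Wnt3 source, and 8 Paneth markers summed to 52.3 to 95.9 FPKM in villus EC, 279 to 585 in villus epi, 6542 to 9564 in crypt EC and 198936 to 239564 in crypt epi. Villus EC thus held the highest Wnt3 and the lowest Paneth sum of the 4 groups. In the crypt, EC libraries had more Wnt3 and a lower Paneth sum than epi libraries. Single markers were not at 0 in villus EC: Lyz1, the Paneth lysozyme, had 27.4 to 76.0 FPKM in villus EC, 44.7 to 70.9 in villus epi, 1281 to 2196 in crypt EC and 46357 to 52248 in crypt epi. The part of Paneth cells in the Wnt3 values was not tested.

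All 15 ligands together summed to 59.8 ± 1.77 FPKM in villus EC, 4.10 ± 1.37 in villus epi, 30.3 ± 3.69 in crypt EC and 13.9 ± 2.34 in crypt epi (SD, n = 4 each). Wnt3 made up 92.7% ± 1.07 of that sum in villus EC, 9.18% ± 10.3 in villus epi, 91.2% ± 1.15 in crypt EC and 81.6% ± 1.59 in crypt epi. Wnt9a, the other tested ligand, was low. It entered the test through villus EC alone, so its fold change describes the group that admitted it. It had 2.06, 2.14, 1.64 and 2.09 FPKM in villus EC, against 0, 0.0573, 0.113 and 0.0498 FPKM in villus epi (log2 fold change 1.497, adjusted p = 7.78e-07). Crypt EC averaged 0.465 FPKM and crypt epi 0.196 FPKM, a difference that was not called (adjusted p = 0.19). Wnt9b, which lies next to Wnt3 on chromosome 11, never passed 1.19 FPKM.

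Wls, the carrier that brings Wnt proteins to the surface, was low in 1 group only. It had 36.0, 32.4, 34.1 and 29.5 FPKM in villus EC, against 2.22, 4.20, 2.34 and 0.899 FPKM in villus epi. In crypt EC it had 31.6, 40.0, 41.0 and 34.5 FPKM, against 39.7, 39.1, 38.7 and 42.2 FPKM in crypt epi. The 2 crypt groups overlapped, and every villus epi library lay below every other library. The fold change of EC against epi was 3.40 (SE 0.22, adjusted p = 2.61e-09) in the villus and -0.12 (adjusted p = 0.694) in the crypt, and that of villus epi against crypt epi -3.67 (adjusted p = 1.94e-09). The interaction was 3.53 (SE 0.31, adjusted p = 4.77e-07). Porcn, the acyltransferase, averaged 3.28 ± 0.566 FPKM in villus EC, 2.17 ± 2.47 in villus epi, 2.65 ± 0.606 in crypt EC and 4.89 ± 1.29 in crypt epi. Its one pairwise call, lower in villus epi than in crypt epi (-1.17, adjusted p = 0.0163), was lost without villus epi replicate 1 (-0.86, adjusted p = 0.0581) or replicate 4 (-0.93, adjusted p = 0.0562). Without villus epi replicate 2, which had 5.69 FPKM, Porcn was higher in villus EC than in villus epi (1.19, adjusted p = 5.73e-04). In that fit Porcn was also called lower in crypt EC than in crypt epi (-0.68, adjusted p = 0.0201).

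Rspo4 (chromosome 2, 151842927 to 151874668, plus strand), an R-spondin, was detected almost only in EC libraries. It had 4.75, 8.38, 9.42 and 3.58 FPKM in villus EC, against 0, 0.0413, 0 and 0.024 FPKM in villus epi. In crypt EC it had 3.12, 2.27, 3.75 and 3.504 FPKM, while crypt epi replicates 1 to 3 were listed at 0 and replicate 4 at 0.210 FPKM. EC and epi did not overlap at either site, and the log2 fold changes were 2.81 (SE 0.22, adjusted p = 2.62e-08) in the villus and 1.97 (SE 0.22, adjusted p = 3.33e-06) in the crypt. The villus EC libraries spread widely and replicate 4 lay within the crypt EC range. Their difference from crypt EC, 0.79 (adjusted p = 0.0154), was lost without villus EC replicate 2 (0.66, adjusted p = 0.0568), villus EC replicate 3 (0.61, adjusted p = 0.0558) or crypt EC replicate 2 (0.68, adjusted p = 0.0548). The interaction of 0.84 (adjusted p = 0.0442) was lost in 12 of the 16 fits that left out 1 library each.

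**Figure D3:**
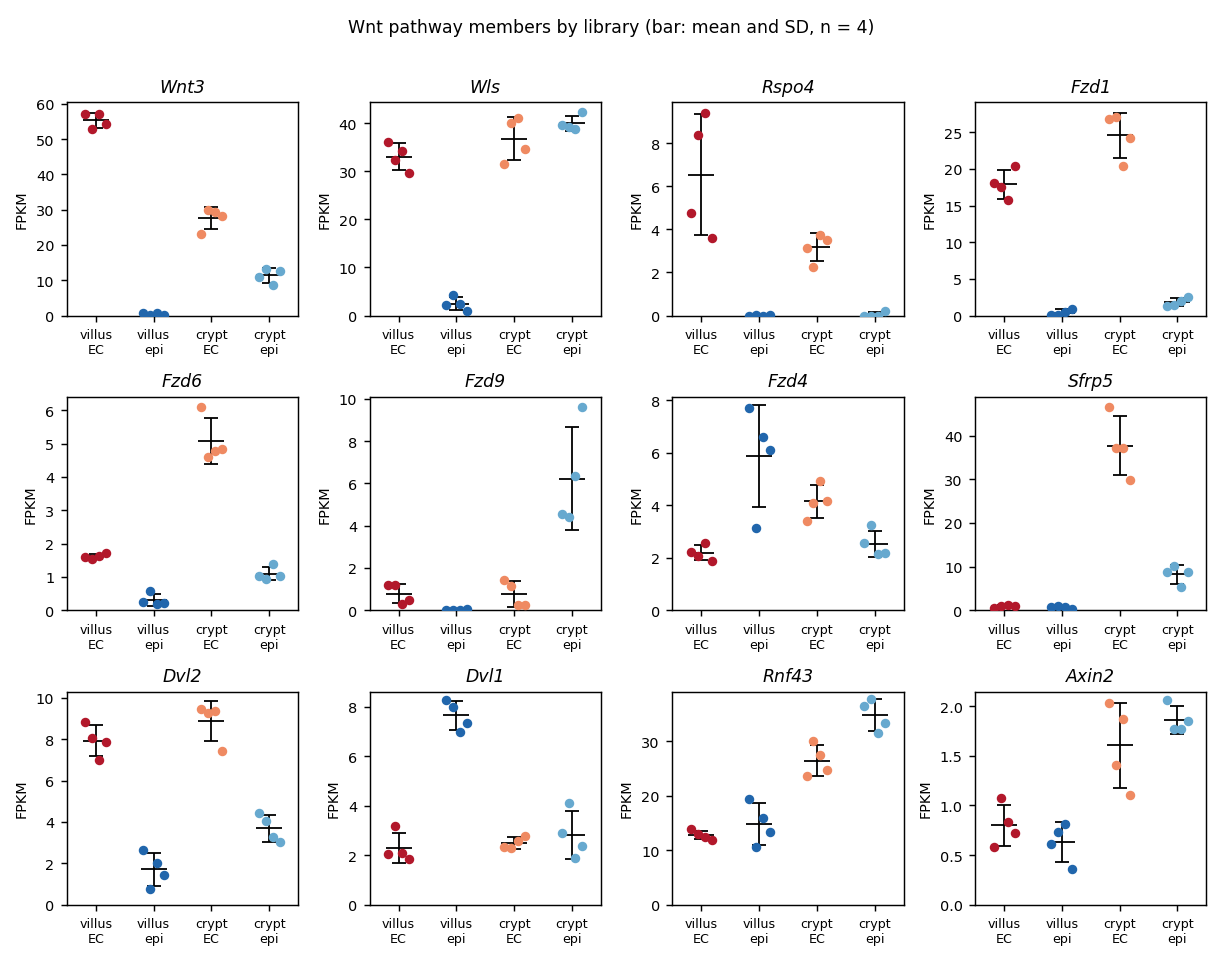
Each panel plots FPKM of 1 gene by library, with horizontal bars for the mean and SD of 4 libraries. Wnt3, Rspo4, Fzd1 and Dvl2 separate EC from epi at both sites, Wls is low in villus epi alone, and Sfrp5 is high in crypt EC.

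The frizzled receptors, the Wnt-binding receptors of the cell surface, were led by Fzd1 in EC cells and by other members in epi cells. Their FPKM summed to 28.3 ± 2.16 in villus EC, 11.7 ± 0.998 in villus epi, 38.4 ± 3.65 in crypt EC and 18.1 ± 4.19 in crypt epi. Fzd1 took 63.3% ± 2.57 of the sum in villus EC, 3.51% ± 3.56 in villus epi, 64.0% ± 2.36 in crypt EC and 9.92% ± 1.09 in crypt epi. In villus epi the largest mean share was that of Fzd4 (49.5%), and in crypt epi that of Fzd9 (33.6% ± 5.45).

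**Figure D4:**
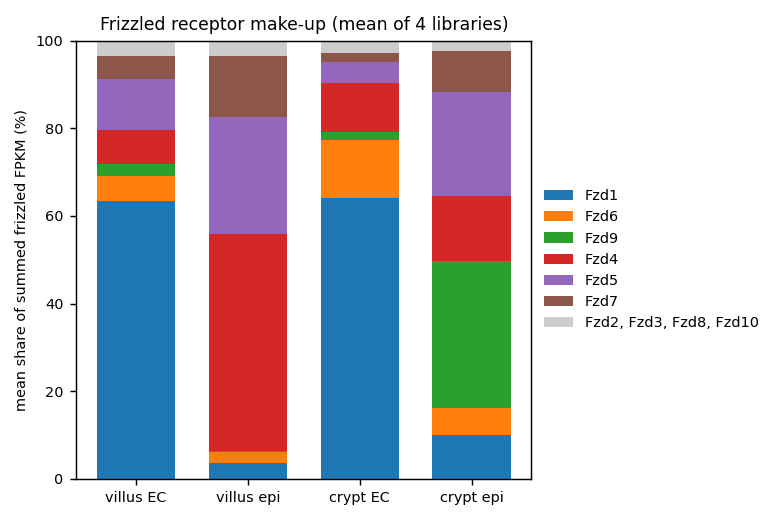
Stacked bars give the mean share (%) of each receptor in the summed frizzled FPKM of 4 libraries per group. Fzd1 fills 63.3% and 64.0% of the 2 EC bars, Fzd4 49.5% of the villus epi bar and Fzd9 33.6% of the crypt epi bar.

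Fzd1 (chromosome 5, 4753839 to 4758035, minus strand) had 18.1, 17.5, 15.7 and 20.4 FPKM in villus EC, against 0.0364, 0.112, 0.539 and 0.943 FPKM in villus epi. It had 26.8, 27.0, 20.4 and 24.2 FPKM in crypt EC, against 1.35, 1.43, 1.98 and 2.46 FPKM in crypt epi. EC lay far above epi at both sites, by 3.79 (SE 0.21, adjusted p = 3.40e-10) in the villus and 3.20 (SE 0.21, adjusted p = 5.74e-09) in the crypt. The site difference was not called in EC cells (-0.43, adjusted p = 0.146) and was called in epi cells (-1.03, adjusted p = 5.35e-04), while the interaction, 0.59, was not (adjusted p = 0.117).

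Fzd6, a receptor known in mouse for planar polarity of hair follicles, followed the same order of EC over epi at a lower level. It had 1.59, 1.54, 1.63 and 1.72 FPKM in villus EC, against 0.238, 0.587, 0.194 and 0.213 FPKM in villus epi. In crypt EC it had 6.10, 4.59, 4.79 and 4.84 FPKM, against 1.01, 0.947, 1.39 and 1.03 FPKM in crypt epi. No 2 of the groups overlapped. EC exceeded epi by 1.01 (adjusted p = 8.78e-06) in the villus and 1.54 (adjusted p = 2.12e-07) in the crypt, and villus EC was lower than crypt EC (-1.21, adjusted p = 7.90e-06). The interaction, -0.52 (adjusted p = 0.0382), turned to 0.05 (adjusted p = 0.934) with 0.1 added before the log. It was also lost in 8 of the 16 fits that left out 1 library each and with no filter (adjusted p = 0.0572) or a replicate block (adjusted p = 0.0690).

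Fzd9 and Fzd4 changed direction between sites. Fzd9 had 1.18, 1.19, 0.299 and 0.475 FPKM in villus EC, while villus epi replicates 1 to 3 were listed at 0 and replicate 4 at 0.0499 FPKM. In the crypt it had 1.43, 1.16, 0.228 and 0.264 FPKM in EC, against 4.53, 4.42, 6.33 and 9.60 FPKM in epi. EC and epi did not overlap at either site, with EC higher in the villus and lower in the crypt, and the crypt epi libraries were the highest of all. The fold change was 0.78 (SE 0.27, adjusted p = 0.0197) in the villus and -2.04 (SE 0.27, adjusted p = 1.60e-05) in the crypt, with an interaction of 2.82 (SE 0.38, adjusted p = 2.72e-05). The villus call was lost without villus EC replicate 1 (0.67, adjusted p = 0.0614) or replicate 2 (0.67, adjusted p = 0.0620). In EC of both sites, replicates 1 and 2 had more Fzd9 than replicates 3 and 4, and the reason was not tested.

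Fzd4, which also serves as receptor for the non-Wnt ligand Norrin, had 2.23, 2.08, 2.57 and 1.89 FPKM in villus EC, against 7.70, 3.15, 6.62 and 6.10 FPKM in villus epi. In crypt EC it had 3.42, 4.10, 4.93 and 4.16 FPKM, against 2.55, 3.23, 2.15 and 2.17 FPKM in crypt epi. No EC library overlapped with epi of its own site, and the low value of villus epi was that of replicate 2. The fold change was -1.06 (SE 0.21, adjusted p = 3.49e-04) in the villus and -1.29 (adjusted p = 9.45e-07) without that replicate. In the crypt it was 0.55 (SE 0.21, adjusted p = 0.0431), a call lost without crypt EC replicate 3 (0.48, adjusted p = 0.117) and without 10 other libraries in turn. It was also lost on the median-ratio scale (0.42, adjusted p = 0.168). Without villus epi replicate 2 the crypt call was kept (0.55, SE 0.14, adjusted p = 0.00239). The fit shares the spread of a gene between all groups, so that library also enters the SE of the crypt comparison. The interaction was -1.61 (SE 0.29, adjusted p = 3.88e-04). Fzd5, known in mouse for its part in Paneth cell maturation, averaged 3.26 ± 0.251 FPKM in villus EC, 3.15 ± 0.632 in villus epi, 1.86 ± 0.397 in crypt EC and 4.21 ± 0.412 in crypt epi. It was lower in crypt EC than in crypt epi (-0.87, adjusted p = 2.23e-04) and was not called in the villus (0.05, adjusted p = 0.802). Fzd7, a receptor known in mouse intestinal stem cells, averaged 1.49 FPKM in villus EC, 1.58 in villus epi, 0.805 in crypt EC and 1.80 in crypt epi, and none of its comparisons was called.

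The coreceptors Lrp5 and Lrp6 were not called in any comparison. Lrp6 averaged 4.71 ± 1.64 FPKM in villus EC, 5.50 ± 1.82 in villus epi, 5.30 ± 2.79 in crypt EC and 6.23 ± 4.08 in crypt epi, and Lrp5 averaged 2.36 FPKM in villus EC, 1.52 in villus epi, 1.25 in crypt EC and 1.44 in crypt epi. The ubiquitin ligase Rnf43, which removes frizzled receptors and is itself a Wnt target, differed by site. It had 13.9, 12.9, 12.5 and 11.98 FPKM in villus EC, against 23.6, 30.1, 27.5 and 24.8 FPKM in crypt EC. In epi cells it had 19.5, 10.6, 16.0 and 13.4 FPKM in the villus, against 36.6, 37.8, 31.5 and 33.5 FPKM in the crypt. Villus and crypt did not overlap in either cell type, and the fold change of villus against crypt was -0.99 (adjusted p = 2.30e-04) in EC and -1.21 (adjusted p = 9.60e-06) in epi. EC against epi was not called in the villus (-0.17, adjusted p = 0.371) and was 0.42 (adjusted p = 0.0153) with libraries at an equal sum. It was not called in the crypt either (-0.39, adjusted p = 0.0619), though the crypt groups did not overlap. Without villus epi replicate 2, Rnf43 was called lower in EC at both sites (-0.31, adjusted p = 0.0292, and -0.39, adjusted p = 0.00689). Its paralogue Znrf3 averaged 1.51 FPKM in villus EC, 2.41 in villus epi, 2.03 in crypt EC and 2.48 in crypt epi, with no call. Villus epi replicate 2 had 7.17 FPKM of Znrf3 and the other villus epi libraries 0.733 to 0.963. Without it, Znrf3 was higher in villus EC than in villus epi (0.47, adjusted p = 0.00205) and lower in villus epi than in crypt epi (-0.94, adjusted p = 3.24e-06).

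Among the antagonists, Sfrp5, a secreted frizzled-related protein that binds Wnt outside the cell, had the highest level. It had 0.563, 0.971, 1.27 and 1.00 FPKM in villus EC, against 46.6, 37.3, 37.2 and 29.9 FPKM in crypt EC. In epi cells it had 0.725, 0.846, 0.689 and 0.216 FPKM in the villus, against 8.67, 10.2, 5.19 and 8.83 FPKM in the crypt. Crypt EC libraries were above all others, crypt epi came next, and the villus groups overlapped. Villus EC was lower than crypt EC by a log2 fold change of -4.31 (SE 0.21, adjusted p = 1.15e-09). Crypt EC was higher than crypt epi (2.09, SE 0.21, adjusted p = 1.03e-06), villus EC was not called against villus epi (0.28, adjusted p = 0.275), and the interaction was -1.81 (SE 0.30, adjusted p = 1.77e-04). Dkk3, a divergent Dickkopf protein, averaged 0.409 FPKM in villus EC, 0.138 in villus epi, 1.34 ± 0.274 in crypt EC and 0.337 ± 0.199 in crypt epi, with a fold change of crypt EC against crypt epi of 0.81 (adjusted p = 4.36e-04). Since crypt EC alone brought Dkk3 through the filter, this too describes the group that admitted it. Kremen2, a Dickkopf receptor, averaged 0.940 ± 0.222 FPKM in villus EC and 2.05 ± 0.322 in villus epi, and 1.11 ± 0.199 in crypt EC and 2.40 ± 0.331 in crypt epi. It was lower in EC at both sites (-0.65, adjusted p = 6.89e-04, and -0.69, adjusted p = 7.50e-04), and neither call held with libraries at an equal sum (adjusted p = 0.121 and 0.0557). Kremen1, the other Dickkopf receptor, averaged 2.02 FPKM in villus EC, 1.54 in villus epi, 2.51 in crypt EC and 3.49 in crypt epi, and was not called in any comparison.

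The 3 dishevelled genes, which relay the signal from the receptors, did not move together. Dvl2 had 8.83, 8.03, 6.98 and 7.88 FPKM in villus EC, against 2.63, 0.761, 2.04 and 1.44 FPKM in villus epi. It had 9.48, 9.27, 9.34 and 7.44 FPKM in crypt EC, against 4.42, 4.03, 3.28 and 3.03 FPKM in crypt epi. Every EC library lay above every epi library, and the fold change was 1.76 (SE 0.20, adjusted p = 1.49e-06) in the villus and 1.08 (SE 0.20, adjusted p = 4.04e-04) in the crypt, with an interaction of 0.68 that was not called (adjusted p = 0.0644). Dvl1 had 2.05, 3.17, 2.10 and 1.84 FPKM in villus EC, against 8.28, 7.98, 6.99 and 7.35 FPKM in villus epi. It had 2.32, 2.29, 2.57 and 2.77 FPKM in crypt EC, against 2.89, 4.12, 1.91 and 2.36 FPKM in crypt epi. Villus epi stood above the other 3 groups, which overlapped. In the villus, Dvl1 was lower in EC than in epi (-1.41, SE 0.18, adjusted p = 5.00e-06) and was not called in the crypt (-0.10, adjusted p = 0.689), with an interaction of -1.31 (SE 0.25, adjusted p = 6.47e-04). Dvl3 was not called in any comparison. It averaged 15.9 ± 4.13 FPKM in villus EC, 19.7 ± 17.8 in villus epi with 46.0 in replicate 2, 15.4 ± 3.12 in crypt EC and 13.99 ± 3.23 in crypt epi.

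The 2 feedback genes tested, Axin2 and Nkd1, are induced by the pathway they restrain. Axin2 had 0.579, 1.07, 0.830 and 0.725 FPKM in villus EC, against 2.03, 1.41, 1.87 and 1.10 FPKM in crypt EC. It had 0.611, 0.730, 0.817 and 0.355 FPKM in villus epi, against 2.06, 1.77, 1.77 and 1.85 FPKM in crypt epi. Villus libraries lay below crypt libraries in both cell types, by a small gap in EC. Villus against crypt was -0.82 in epi (adjusted p = 2.11e-04) and -0.52 in EC (adjusted p = 0.0154). The EC call was lost without villus EC replicate 1 (-0.46, adjusted p = 0.0518) or crypt EC replicate 1 (-0.45, adjusted p = 0.0521). EC and epi were not called apart at either site (0.15, adjusted p = 0.405, in the villus and -0.15, adjusted p = 0.451, in the crypt). Nkd1, which binds dishevelled, averaged 0.189 FPKM in villus EC, 0.502 in villus epi, 0.775 ± 0.314 in crypt EC and 4.90 ± 1.85 in crypt epi. It was lower in crypt EC than in crypt epi (-1.70, adjusted p = 1.27e-05) and lower in villus epi than in crypt epi (-1.94, adjusted p = 1.84e-06). Nkd1 would have failed the filter without crypt epi, so both differences describe the group that admitted it. Axin1, the scaffold of the destruction complex, averaged 6.52 FPKM in villus EC, 7.23 in villus epi, 6.93 in crypt EC and 4.48 in crypt epi, and was not called in any comparison.

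Tcf7l2, the main TCF factor of the intestinal epithelium, was the only tested TCF/LEF gene. It had 18.8, 23.8, 18.6 and 18.6 FPKM in villus EC, against 46.2, 660.0, 38.7 and 38.3 FPKM in villus epi. It had 35.9, 26.1, 29.8 and 32.6 FPKM in crypt EC, against 33.7, 35.0, 41.0 and 29.4 FPKM in crypt epi. Villus EC lay below every other group, the crypt groups overlapped, and villus epi replicate 2 was far above every other library. The fold change in the villus was -2.004 (SE 0.65, adjusted p = 0.0139) with that library and -1.01 (SE 0.13, adjusted p = 4.25e-06) without it. With all libraries the call was lost at an equal sum (-1.39, adjusted p = 0.0828) and in a fit of the 2 villus groups alone (adjusted p = 0.0811). The interaction was -1.85 (adjusted p = 0.12) with villus epi replicate 2 and -0.85 (adjusted p = 7.35e-04) without it. Villus EC against crypt EC was -0.62, with adjusted p = 0.579 with that library in the fit and 6.8e-04 without it. What else set that library apart was not tested against these values.

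Other genes of the pathway were counted in 4 further lists. Of 19 tested surface and secreted regulators, 8 were higher and 1 lower in EC than in epi of the villus, and 8 were higher and 3 lower in crypt EC than in crypt epi. Of all genes, 40.6% were higher and 21.6% lower in the villus, and 23.2% higher and 20.0% lower in the crypt. The median log2 fold change was 0.48 in the villus and 0.35 in the crypt, against 0.33 and 0.05 over all genes. Without villus epi replicate 2 the counts were 10 and 4 in the villus and 8 and 7 in the crypt, with no share of all genes computed. The largest differences were those of Wif1, Tpbg and Cpe. Wif1, a secreted protein that binds Wnt, had 84.6, 95.2, 105.3 and 68.4 FPKM in villus EC, against 0.421, 0.140, 0.238 and 1.65 FPKM in villus epi. In crypt EC it had 34.5, 37.9, 34.6 and 37.5 FPKM, against 0.0806, 0.113, 0.188 and 0.115 FPKM in crypt epi. EC libraries lay far above epi libraries, by 5.86 (SE 0.22, adjusted p = 8.36e-12) in the villus and 5.04 (SE 0.22, adjusted p = 9.55e-11) in the crypt, and villus EC above crypt EC (1.25, adjusted p = 5.70e-04, and 1.27, adjusted p = 0.0523, with 0.1 added before the log). Tpbg, an inhibitor of Wnt signalling known from zebrafish, averaged 253 FPKM in villus EC, 1.33 in villus epi, 453 in crypt EC and 1.30 in crypt epi (6.77, adjusted p = 9.66e-14, in the villus and 7.62, adjusted p = 1.46e-14, in the crypt). Frzb, another secreted frizzled-related protein, averaged 9.56 FPKM in villus EC, 0.0835 in villus epi, 2.19 in crypt EC and 0.0295 in crypt epi (3.27, adjusted p = 1.71e-08, and 1.53, adjusted p = 1.37e-04). The membrane protease Trabd2b, known to inactivate Wnt proteins, was also higher at both sites (2.08, adjusted p = 3.27e-09, and 1.64, adjusted p = 1.25e-07). Cpe, a prohormone-processing enzyme of endocrine granules, averaged 1130.0 FPKM in villus EC, 45.8 in villus epi, 1222 in crypt EC and 46.1 in crypt epi.

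**Figure D5:**
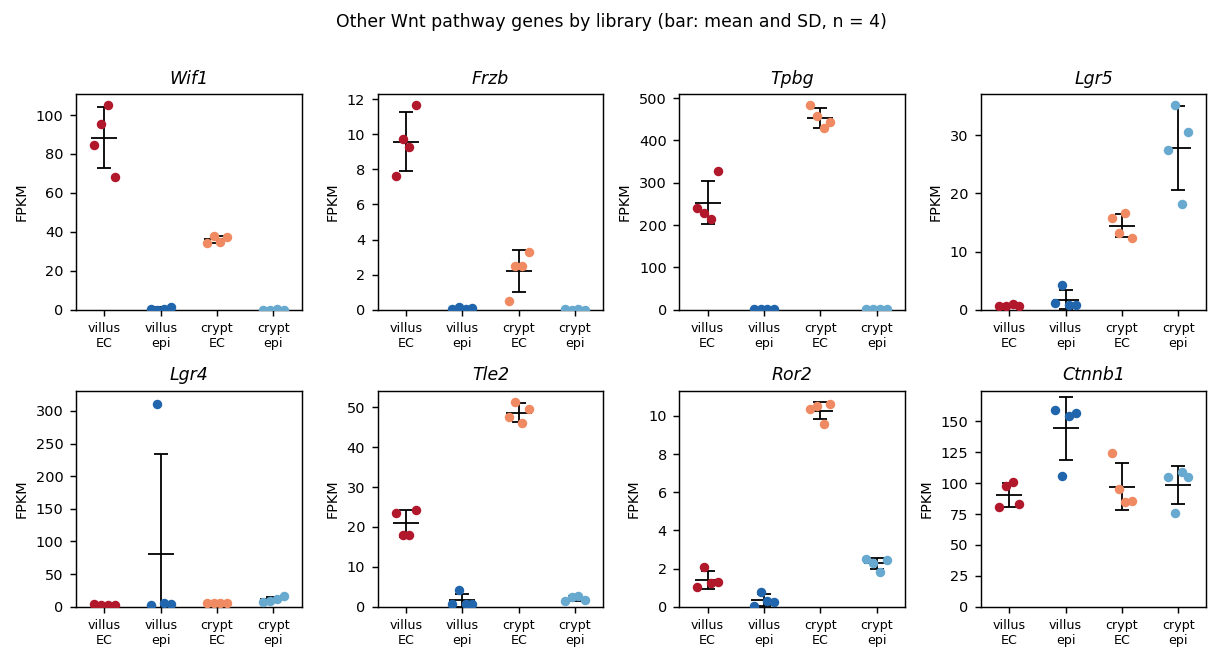
Each panel plots FPKM of 1 gene outside the 56 by library, with horizontal bars for the mean and SD of 4 libraries. Wif1 and Frzb are highest in villus EC, Tpbg, Tle2 and Ror2 in crypt EC, Lgr5 in crypt epi, and villus epi replicate 2 holds 310.9 FPKM of Lgr4.

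Lgr4 and Lgr5 are the R-spondin receptors. Lgr5, the marker of crypt stem cells, had 0.739, 0.686, 1.04 and 0.720 FPKM in villus EC, against 15.8, 13.2, 16.5 and 12.3 FPKM in crypt EC. It had 1.10, 4.24, 0.745 and 0.890 FPKM in villus epi, against 27.4, 35.2, 18.1 and 30.5 FPKM in crypt epi. Crypt libraries were above villus libraries and crypt epi above crypt EC without overlap (crypt EC against crypt epi -0.87, SE 0.30, adjusted p = 0.0271). That call was lost with libraries at an equal sum (-0.35, adjusted p = 0.325). It was also lost without crypt EC replicate 2 or 4 (-0.83, adjusted p = 0.0641, and -0.80, adjusted p = 0.0725) and without crypt epi replicate 1, 2 or 4 (-0.86, -0.75 and -0.81, adjusted p = 0.0551, 0.0836 and 0.0669). Lgr4 was not called in any comparison. Without villus epi replicate 2 it was lower in crypt EC than in crypt epi (-0.93, adjusted p = 8.40e-04) and lower in villus epi than in crypt epi (-1.22, adjusted p = 1.22e-04).

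Of 17 Wnt targets and stem cell genes, 14 were lower and 1 higher in villus EC than in crypt EC, and 16 were lower in villus epi than in crypt epi. Of all genes, 16.2% were lower in villus EC than in crypt EC and 35.4% lower in villus epi than in crypt epi. The medians were -3.10 and -3.52, against -0.05 and -0.19 over all genes. Olfm4, a stem cell marker, averaged 2.43 FPKM in villus EC, 3.69 in villus epi, 961 in crypt EC and 1385 in crypt epi. Prom1, a membrane protein of progenitors, was the gene of this list that was higher in villus EC than in crypt EC (1.16, adjusted p = 0.00100). It had 127, 119, 129 and 101 FPKM in villus EC, against 10.6, 15.1, 8.39 and 5.34 FPKM in villus epi. In the crypt it had 69.8, 47.1, 46.9 and 48.8 FPKM in EC, against 101, 103, 109 and 94.7 FPKM in epi. EC was above epi in the villus (3.54, adjusted p = 1.70e-09) and below it in the crypt (-0.94, adjusted p = 0.00274, and -0.41, adjusted p = 0.176, at an equal sum), without overlap, and the interaction was 4.48 (SE 0.31, adjusted p = 5.15e-08). Between EC and epi, 7 of the 17 were higher and 4 lower in the villus, and 3 were higher and 8 lower in the crypt, against 40.6% and 21.6% of all genes in the villus and 23.2% and 20.0% in the crypt. On the equal-sum scale the crypt counts were 4 and 3, against 42.6% and 10.2% of all genes on that scale. Myc, a growth regulator, and Mmp7, a protease of Paneth cells, were lower in crypt EC than in crypt epi (-1.42, adjusted p = 5.69e-05, and -2.92, adjusted p = 4.85e-08). Cd44, a hyaluronan receptor, was higher (1.13, adjusted p = 1.21e-04). Mmp7 and the other Paneth markers moved the same way in this comparison, and their part in it was not tested.

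Of 20 tested genes of planar polarity and other β-catenin-independent branches, 12 were higher and 1 lower in EC than in epi of the villus, and 9 were higher in crypt EC than in crypt epi. The medians were 0.80 in the villus and 0.50 in the crypt, against 0.33 and 0.05 over all genes. Of all genes, 40.6% were higher and 21.6% lower in the villus and 23.2% higher in the crypt. At an equal sum 13 of the 20 were higher in the villus, against 55.9% of all genes, and 14 in the crypt, against 42.6%. Ror2, a receptor for Wnt5a, had 1.02, 2.06, 1.23 and 1.28 FPKM in villus EC, against 0.0275, 0.758, 0.299 and 0.249 FPKM in villus epi. It had 10.4, 10.5, 9.60 and 10.6 FPKM in crypt EC, against 2.51, 2.32, 1.84 and 2.43 FPKM in crypt epi. Crypt EC stood above the other groups, and EC above epi at each site (0.85, adjusted p = 5.35e-04, in the villus and 1.79, adjusted p = 6.47e-07, in the crypt). The polarity gene Vangl1 was higher in villus EC than in villus epi (2.49, adjusted p = 7.89e-08) and lower in villus epi than in crypt epi (-1.81, adjusted p = 3.76e-06), with means of 8.60 FPKM in villus EC, 0.754 in villus epi, 5.13 in crypt EC and 5.05 in crypt epi. The polarity gene Celsr3 (crypt fold change 1.58, adjusted p = 1.07e-07) and Fuz, which serves cilia, were among those higher in EC at both sites.

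Of 27 tested genes of the β-catenin machinery, 9 were higher and 3 lower in EC than in epi of the villus, and 5 were higher and 1 lower in crypt EC than in crypt epi. The shares of all genes were 40.6% and 21.6% in the villus and 23.2% and 20.0% in the crypt. On the median-ratio scale the counts were 5 and 6 in the villus, against 33.7% and 26.3% of all genes on that scale. In the crypt they were 3 and 1, against 19.4% and 24%. At an equal sum the counts were 14 and 1 in the villus, with 14 higher in the crypt. The shares of all genes higher at an equal sum were 55.9% in the villus and 42.6% in the crypt. Without villus epi replicate 2 the counts were 12 and 3 in the villus and 11 and 1 in the crypt, with no share of all genes computed. Tle2, a corepressor that binds TCF factors, had 23.4, 18.01, 18.1 and 24.3 FPKM in villus EC, against 0.751, 4.07, 0.678 and 0.758 FPKM in villus epi. It had 47.7, 51.5, 46.0 and 49.7 FPKM in crypt EC, against 1.41, 2.41, 2.70 and 1.60 FPKM in crypt epi. EC was above epi in every library, by 3.27 (SE 0.29, adjusted p = 1.11e-07) in the villus and 4.06 (SE 0.29, adjusted p = 2.27e-08) in the crypt. Btrc, which marks β-catenin for destruction, was also higher at both sites (1.77, adjusted p = 1.14e-08, and 1.31, adjusted p = 8.53e-07). Ctnnb1, which encodes β-catenin, averaged 90.5 FPKM in villus EC and 144 in villus epi (-0.65, adjusted p = 0.00327, and -0.02, adjusted p = 0.907, at an equal sum), and 97.3 in crypt EC and 98.6 in crypt epi (-0.02, adjusted p = 0.929).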

How the data were processed

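Bulk RNA was measured in 16 libraries, 4 in each of 4 groups. The authors deposited gene-level FPKM values. Their making involved bcl2fastq 2.20, kallisto, sleuth and mouse build mm10, per the submitters' processing notes, and neither the annotation release nor the scaling between libraries is given in the sources used here. Here, log2(FPKM + 1) was fitted in R 4.3.3 by the limma package, version 3.58.1 (lmFit, contrasts.fit, eBayes with a variance trend), in 1 fit with 4 group means, two-sided, for the 14089 genes at 1 FPKM or more in at least 4 libraries, with Benjamini-Hochberg adjustment within each of 5 contrasts. Scripts were tested on simulated data. Gene positions are those of GENCODE M21 for GRCm38 and promoters those of RefSeq. Python 3.11.15 and matplotlib 3.10.9 drew the figures. The genes and lists were chosen with earlier results of these data known. Library values are given for tested genes with a group mean of at least 5 FPKM and a call in a pairwise contrast, and for Wnt3, Axin2 and Tcf7l2. Other lists were described by counts, with called genes of the largest change and Lgr4, Lgr5 and Ctnnb1 named. Wnt9a, Porcn, Znrf3, Frzb, Trabd2b, Ror2, Prom1 and other genes beyond that rule were named after their values were seen. Alternatives changed the added constant, the low-value filter, the scaling, the variance trend, the replicate block, the libraries fitted and each library in turn.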

Additional observations from a re-analysis of the deposited data

Results flagged for a closer look

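Of 52 groups of 4 libraries (13 genes in 4 groups), 7 had 1 library far from the other 3 by Dixon's criterion. For independent groups of normally distributed values, chance alone meets it in about 1 of 20 groups. Here it was applied to FPKM, and the 13 genes share the same libraries, so the 7 cannot be set against that rate. Tcf7l2 was at 660.0 FPKM in villus epi replicate 2, with the others at 38.3 to 46.2, and at 23.8 FPKM in villus EC replicate 2, with the others at 18.6 to 18.8. Fzd6 was at 0.587 FPKM in villus epi replicate 2 (others 0.194 to 0.238) and at 6.10 FPKM in crypt EC replicate 1 (others 4.59 to 4.84). Dvl2 was at 7.44 FPKM in crypt EC replicate 4 (others 9.27 to 9.48). Rspo4 in crypt epi replicate 4 (0.210 FPKM) and Fzd9 in villus epi replicate 4 (0.0499 FPKM) were above 0 where the other 3 libraries of the group were listed at 0. In such a group any value above 0 meets the criterion, however small.

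The gap between EC and epi differed between villus and crypt, by limma's test of the interaction, in 8 of the 13 genes. Of all genes tested, 26.9% were called as higher and 16.0% as lower, and the 13 were named partly for having a pairwise call. The difference of log2 fold changes, villus minus crypt, was 4.18 for Wnt3, 3.53 for Wls, 2.82 for Fzd9, 0.84 for Rspo4, -0.52 for Fzd6, -1.31 for Dvl1, -1.61 for Fzd4 and -1.81 for Sfrp5. The Rspo4 call was lost in 12 and the Fzd6 call in 8 of the 16 fits that left out 1 library each.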

How the results depend on the processing

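Of the 59 comparisons of single tested genes that were called, counting the interaction, 520 of 543 recomputed values kept direction and call under settings other than leaving out a library, 22 lost the call and 1 reversed. Leaving out each library in turn kept 888 of 944 and lost 56. The reversed values were the Fzd6 interaction (0.0487 with 0.1 added before the log), Rnf43 between villus EC and villus epi (0.42 at an equal sum) and Znrf3 in the same comparison, which was not called with all libraries and ranged from -0.28 to 0.47 over single omissions, the highest without villus epi replicate 2. The causes were not tested. A filter of at least 5 FPKM tested 11 of the genes and, by limma, left 4 higher and 2 lower between villus EC and villus epi (43.1% and 24.6% of all genes), 4 and 0 between crypt EC and crypt epi (22.7% and 23.6%; 1 lower at an unadjusted p under 0.05), 1 and 2 between villus EC and crypt EC (11.2% and 17.8%), 1 and 6 between villus epi and crypt epi (21.4% and 39.9%), and 2 and 2 for the interaction (30.5% and 17.8%). Equal sums gave 15 higher and 2 lower between villus EC and villus epi, an added 0.1 gave 2 higher between villus EC and crypt EC, and no filter gave 4 higher between villus epi and crypt epi. Over single omissions the counts of higher and lower genes ran from 7 to 10 and 4 to 5 between villus EC and villus epi, 7 to 9 and 4 to 6 between crypt EC and crypt epi, 3 to 5 and 5 to 8 between villus EC and crypt EC, 2 to 3 and 10 to 13 between villus epi and crypt epi, and 6 to 9 and 3 to 6 for the interaction. Without villus epi replicate 2 they were 10 and 5 between villus EC and villus epi. For the fits with an added 0.1, with no filter or without a library, the shares of all genes called were not computed.

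Taken over all groups together, the title replicate numbers showed no pairing in the values. Same-numbered libraries deviated from their group means with correlations of -0.27 to 0.17 over 24 pairs. Libraries that shared neither number gave -0.27 to 0.31 over 68 pairs. Between villus EC and crypt EC, the same-numbered pairs gave 0.170, 0.087, 0.006 and 0.121 for replicates 1 to 4. Villus EC replicate 4 gave 0.176 with crypt EC replicate 3. In EC of both sites, Fzd9 and the myeloid marker Lyz2 were higher in replicates 1 and 2 than in replicates 3 and 4. The reason for that split was not tested. Such correlations cannot show whether libraries came from the same mice, so the pairing stays unknown. With that number as a replicate block, 8 genes were higher and 4 lower between villus EC and villus epi, 7 and 4 between crypt EC and crypt epi, 4 and 6 between villus EC and crypt EC, 2 and 11 between villus epi and crypt epi, and 7 and 3 for the interaction. Blocking by the library number left all 10 counts as they were. For neither block was the share of all genes called computed, so these counts have no background beside them. Depth is unknown, so values below about 1 FPKM carry an error that cannot be stated.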
